A study of Mus musculus with 12 samples.

Results

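Enzymes that chemically modify drugs, dietary compounds, steroids and other small foreign molecules were followed through stromal RNA of the mouse colon. The genes were taken by symbol from 6 families: cytochromes P450 of the subfamilies Cyp1 to Cyp4, the UDP-glucuronosyltransferases Ugt1 and Ugt2, the cytosolic glutathione S-transferases of the alpha, mu, pi and theta classes (Gsta, Gstm, Gstp and Gstt), the carboxylesterases Ces1 to Ces3, the sulfotransferases (Sult), and the aldo-keto reductases Akr1b and Akr1c. Of the 19049 genes in the deposited count table, 90 belonged to these families, namely 34 Cyp, 17 Gst, 12 Ces, 10 Ugt, 9 Akr1 and 8 Sult genes. The GENCODE M21 annotation holds 162 symbols of this form, and the other 72 were not listed in the table. The rule reads symbols and no measured value, but the families were chosen with earlier results of these data known. The members share ancestry within a family and often sit in gene clusters, so they are not independent of one another.

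The libraries come from growing, adult and tumour-bearing colon: 4 C57BL/6J mice each, 1 RNA-seq library per mouse. The normal adult mice were 8 weeks old and had no stated treatment, the P14 mice were killed at postnatal day 14 (2 weeks, called prenatal in one sentence of the design text), and the tumour mice were 12, 13, 14 and 14 weeks old. The tumour mice had received AOM (azoxymethane, a carcinogen that a cytochrome P450 activates) and DSS (dextran sodium sulfate, a polymer toxic to the colon lining). The labels name no transgene or deletion in any group. Stroma here means live colon cells sorted for the absence of 4 surface proteins: EPCAM of epithelium, CD31 of endothelium, CD45 of leukocytes and TER119 of red blood cells. Each library pools every cell type left, and the tumour mice were older than the normal adult mice. Both sexes, 2 mice of each, were planned for every group, and no label gives the sex of a library. Xist was at 490.7 CPM or more in all 4 tumour libraries, and 4 Y-linked genes together had 1 count or none there, whereas 2 libraries of each other group had Xist under 1 CPM.

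Drug metabolism is usually described in steps. In the first, cytochromes P450 oxidize a compound, carboxylesterases cleave its esters, and aldo-keto reductases reduce its carbonyl groups. In the next, transferases attach glutathione, glucuronic acid or sulfate, and transporters then carry the product out of the cell. Liver and intestinal epithelium are the best known sites, where the nuclear receptors PXR and CAR, the aryl hydrocarbon receptor and HNF4 control many of these genes. Fibroblasts are known for fewer of them, such as the P450 Cyp1b1.

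Depth was 26392364 to 29911817 counts per normal adult library, 29499836 to 38799033 per P14 library and 15449444 to 28471598 per tumour library. The shallowest was tumour replicate 4, and 9.14% of listed genes had no count in it, against 1.4% or less in each other library. Levels are given in CPM, the count relative to the library total after scaling with TMM factors. Fibroblast markers summed to between 25810 and 32720 CPM in normal adult, between 70510 and 92070 CPM at P14 and between 10630 and 29150 CPM in tumours. Of these 6 markers 3 were higher at P14 than in normal adult and 3 were not called. Among 4 markers of adventitial fibroblasts 3 were lower at P14. The mean sums in normal adult, P14 and tumours were 1338, 5240 and 1426 CPM for smooth muscle (5 of 5 markers higher at P14), 525.8, 1633 and 2206 CPM for pericytes (4 of 4 higher at P14 and in tumours), 40.86, 106.7 and 26.85 CPM for enteric glia, and 229.1, 158.2 and 35.99 CPM for endothelium. Markers of sorted-out cells were nevertheless present. All 16 epithelial markers, Epcam included, had counts in all 12 libraries, and their sum was 7407, 15150, 13550 and 7325 CPM in normal adult replicates 1 to 4, 743.9, 753.9, 457 and 2993 CPM in P14, and 4518, 1585, 5650 and 3596 CPM in tumour libraries. All 16 were lower at P14 than in normal adult, and 5 of 16 were lower in tumours. Markers of squamous epithelium (Krt5, Krt14, Krt6a, Krt13, Trp63 and Dsg3) summed to between 7.016 and 272.1 CPM in normal adult, between 47.21 and 95 CPM at P14 and between 4520 and 12570 CPM in tumours, and all 6 were higher in tumours than in normal adult. Leukocyte markers summed to between 224.9 and 650.2, between 20 and 31.03, and between 12.48 and 403.9 CPM, with tumour replicate 2 highest among tumours. These sums move with several results, and their part in those results was not tested beyond the covariate fits named beside them. In bulk libraries, fewer cells of a type and less RNA per cell cannot be told apart.

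Summed over all members, the level was 2976, 4921, 5170 and 2933 CPM in the normal adult libraries, 774.9, 757.3, 588.5 and 1053 CPM at P14, and 1292, 1744, 1300 and 1657 CPM in tumours. The groups did not overlap. Normal adult replicates 2 and 3 and P14 replicate 4, the high libraries of their groups, also had the highest epithelial sums there, while tumour replicate 2, the highest tumour library, had the lowest. The leading members changed from group to group. Cyp2c55 alone made 20.2% of the summed mean level in normal adult, followed by Ugt2b34 with 7.1% and Sult1d1 with 5.57%. At P14 the leading member was Gstm2 with 8.86%, and in tumours Ces1d and Gsta4 held 12.7% and 12.4%, or 6.48% and 13.8% without tumour replicate 2, which was high for Ces1d (an alternative added after seeing the data). In normal adult 12 members reached 100 CPM, at P14 none did, and in tumours 2 did, or 1 (Gsta4) without tumour replicate 2.

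**Figure D1:**
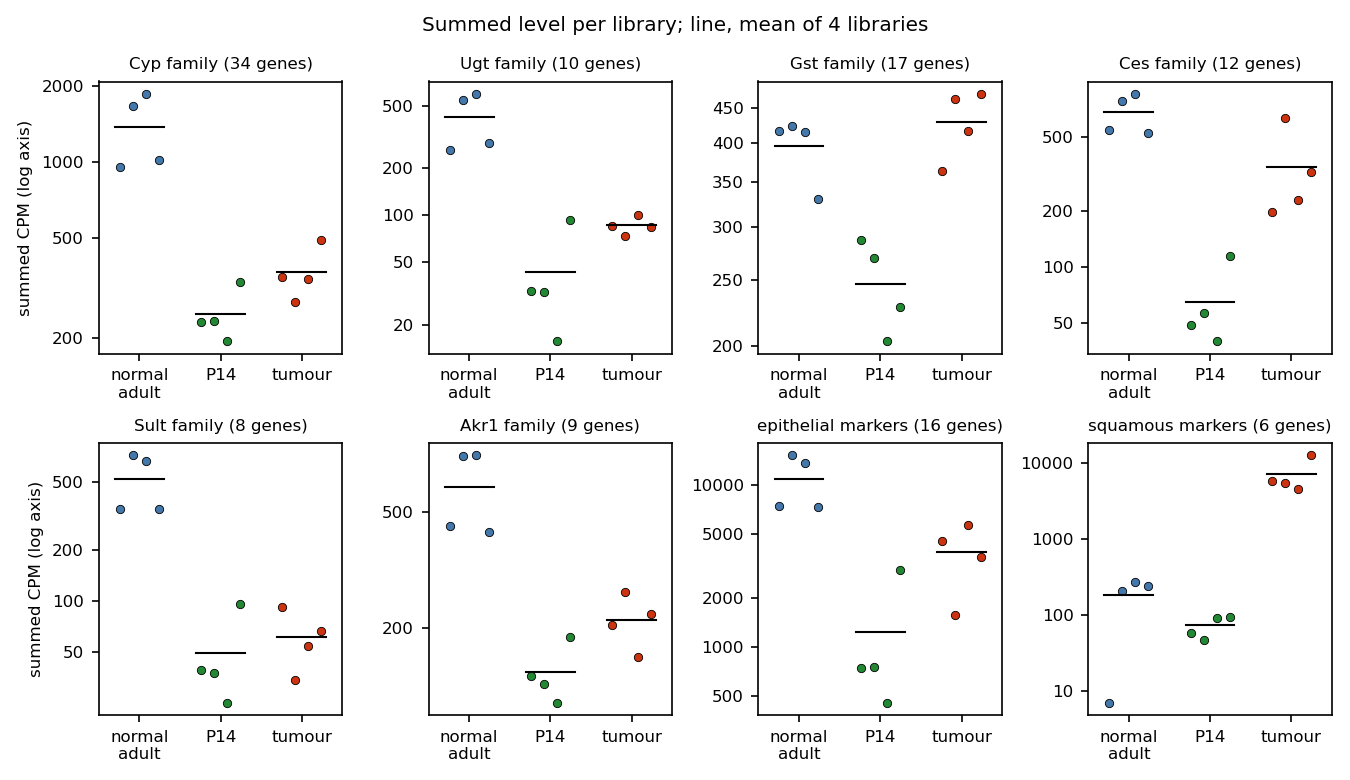
Summed CPM (log axis) of the members of each family, and of the epithelial and squamous marker lists, in each of the 12 libraries; points are replicates 1 to 4 from left to right within a group and lines are means. The Cyp, Sult and Akr1 sums are lower in all P14 and tumour libraries than in any normal adult library, whereas the Gst sum spans 362.9 to 472.9 CPM in tumours and 329.8 to 424.2 CPM in normal adult.

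Across the whole table, edgeR's quasi-likelihood test with Benjamini-Hochberg adjustment over 18727 genes called a gene at an adjusted p under 0.05. Of the 90 members 88 were tested. Cyp3a44 and Sult1e1 fell below the filter on low counts. At P14 against normal adult 53 of 88 members (60.2%) were lower, 35 were not called, and 0 were higher, where 30.9% of all tested genes were called, 16% lower and 14.9% higher. At an unadjusted p under 0.05, 61 members were lower and 1 was higher, and DESeq2 and limma voom placed 1 and 0 among the higher. In tumours against normal adult 35 members (39.8%) were lower and 8 (9.09%) higher, where 18.9% of all tested genes were called, 8.29% lower and 10.6% higher. In tumours against P14 28 members (31.8%) were higher and 0 lower, where 37% of all tested genes were called, 19.7% higher and 17.3% lower, with 33 higher and 8 lower at an unadjusted p under 0.05, and with 4 and 3 lower by DESeq2 and voom. The 3 comparisons share libraries pairwise, so they are set side by side and not counted as repeats of one another. The median log2 fold change of the members was -2.31 at P14 and -0.87 in tumours, each against normal adult, and 0.65 in tumours against P14, while the medians of all tested genes were between 0 and 0.05. Members with a group at 0 counts enter these medians by a fitted value, and setting them at a bound of 3 counts gave -2.26, -0.87 and 0.65.

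By the overlap of libraries, 59 of 88 members were lower in every P14 library than in any normal adult library and 1 was higher in every one, against 21.7% and 21.6% of all tested genes. For tumours the counts were 37 lower and 8 higher, against 11% each way. Against P14, 21 members were higher in every tumour library and 1 was lower, against 14.8% and 17.3%. The calls of each member in the 2 comparisons with normal adult, which share the normal adult libraries, fell into few combinations. 30 members were lower both at P14 and in tumours, 21 were lower at P14 and not called in tumours, and 5 were lower in tumours alone (Cyp2c66, Cyp2d22, Cyp2d26, Ugt2b36 and Ugt2b5). 6 were higher in tumours and not called at P14 (Ces1h, Ces2f, Cyp1b1, Cyp2b10, Cyp4f39 and Gsta4), and 2 were lower at P14 and higher in tumours (Ces2g and Cyp2f2). The remaining 24 were called in neither.

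**Figure D2:**
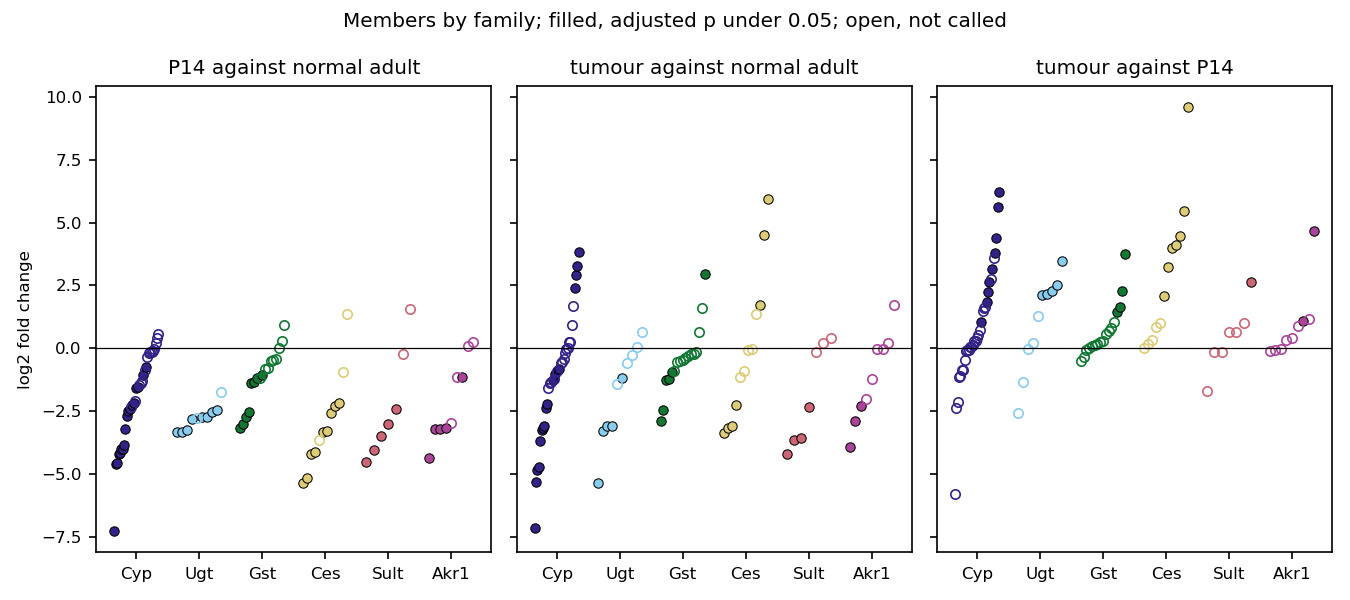
Log2 fold change of each of the 88 tested members, sorted within its family, in the 3 comparisons; filled points have an adjusted p under 0.05 and open points do not. No filled point lies above 0 in the P14 panel or below 0 in the panel of tumours against P14; the lowest Cyp points and the highest Ces point include genes with a group at 0 counts, whose fitted values are no bound.

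Splitting the normal adult libraries as their epithelial sums do, 55 of 88 members (62.5%) were higher in both replicates 2 and 3 than in both replicates 1 and 4, an order that 33% of all tested genes had. In the same way 53 members (60.2%) were highest in P14 replicate 4, against 19.9% of all genes, and 43 members (48.9%) had both orders, against 12.4%. In tumours 29 members (33%) were lowest in replicate 2, the library of lowest epithelial sum, near the 25.3% of all genes. Of these 43, 37 were lower at P14 with a median log2 fold change of -3, and 28 were lower and 3 higher in tumours. Of the 23 members with neither order, 5 were lower at P14 with a median of -0.24, and 2 were lower and 2 higher in tumours. The orders use the same libraries as the fold changes, and calls among all genes with the same orders were not counted. These counts are therefore a description and show no trait of the members. Of all tested genes, whatever their order, 16% were lower at P14, and 8.29% were lower and 10.6% higher in tumours. When the log2 epithelial sum was added to the model as a covariate, 2 of the 53 members remained called lower at P14 (Ces1d and Ces1g), 17 were lower and 8 higher in tumours against normal adult, and calls over all genes at P14 dropped from 5789 to 38. That sum parts these groups, at 7325 to 15150 CPM in normal adult and 457 to 2993 CPM at P14. A P14 call lost in this fit therefore cannot tell a member's change from that of the sum.

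**Figure D3:**
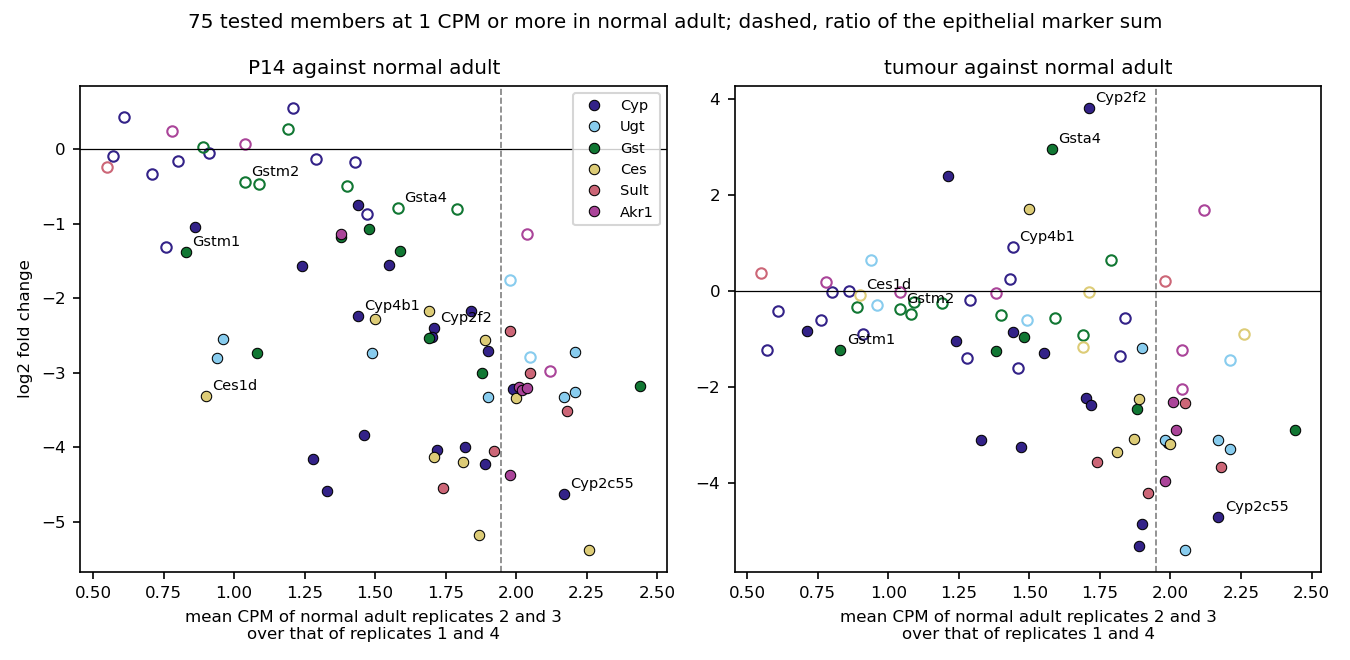
Each point is one of the 75 tested members with at least 1 CPM in normal adult: the ratio of mean CPM in normal adult replicates 2 and 3 over replicates 1 and 4 (horizontal) against the log2 fold change to normal adult (vertical) at P14 (left) and in tumours (right), filled where called; the dashed line is the same ratio of the epithelial marker sum, 1.948. Both axes use the normal adult libraries, so the plot is a description. Cyp2c55 lies right of the line and low in both panels, Ces1d and Gstm1 lie left of 1, and Gsta4 and Cyp2f2 are high in the tumour panel.

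Cytochromes P450, the oxidases, were the most numerous family, and 18 of 33 tested members were lower at P14 and 14 lower and 4 higher in tumours against normal adult (median log2 fold change -1.57 and -0.89). Beside the counts of this and each later family stand the shares of all tested genes. These were 16% lower and 14.9% higher at P14, 8.29% lower and 10.6% higher in tumours against normal adult, and 17.3% lower and 19.7% higher in tumours against P14. The Cyp2c subfamily, which epoxidizes and hydroxylates fatty acids such as arachidonic acid as well as drugs, held 896.5 of the 1378 CPM of the family in normal adult, against 45.69 of 247.7 CPM at P14 and 36.99 of 363.9 CPM in tumours. Cyp2c55, on chromosome 19 (39007019 to 39042693 on GRCm38), was the highest member per length, with a mean of 327.6 TPM over the 12 libraries. TPM is the count per exonic length relative to the library's sum of such values, without TMM factors. Cyp2c55 was at 514.9, 1035, 1182 and 507.2 CPM in normal adult, 17.1, 27.5, 13.2 and 73.6 CPM at P14, and 3.24, 0.43, 13.1 and 107.9 CPM in tumours. Every normal adult library lay above every other library, and the highest and lowest tumour libraries were furthest apart as a ratio. The change was 24.6-fold lower at P14 (log2 fold change -4.62 ± 1.07 (SE), adjusted p = 0.0141) and 26.2-fold lower in tumours (-4.71 ± 1.07, adjusted p = 0.0204), with values of -5.39 without P14 replicate 4 and -7.19 without tumour replicate 4. Cyp2c65, Cyp2c68 and Cyp2c69 were lower in both comparisons as well, with Cyp2c65 at 53.3 ± 21 CPM (SD, n = 4) in normal adult, 8.14 ± 7.63 at P14 and 1.99 ± 2.77 in tumours. Its P14 call (adjusted p = 0.0328 in edgeR) was lost without normal adult replicate 2 or 3 or P14 replicate 1, 2 or 3 (adjusted p between 0.0703 and 0.0895). The log2 fold change of Cyp2c65 at P14 moved from -2.71 to -3.6 without P14 replicate 4. In tumours against normal adult it moved from -4.85 to -6.45 without tumour replicate 4. Cyp2c66 had 73 counts over the normal adult libraries, 34 over P14 and 0 over the tumour libraries, which makes it at least 18.5-fold higher in normal adult than in tumours, and this call was lost without normal adult replicate 2, 3 or 4 or tumour replicate 1 (adjusted p between 0.0503 and 0.0615 in edgeR). Reads of Cyp2c68 and Cyp2c69 are partly ambiguous, since 28.5% and 42.6% of their 75-base windows recur in other genes.

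The promoters of these Cyp2c genes are shown because the members moved in the same direction in both comparisons. Each is the 250 bases before the annotated start in RefSeq, build GRCm38.p6, written on the strand of the gene, and RefSeq starts can differ from those of GENCODE. Windows were found for 76 of the 90 members and searched on both strands for 4 short motifs. Capitals mark any match. The windows are chr19:39006769-39007018 (plus strand) for Cyp2c55, chr19:39060756-39061005 (plus) for Cyp2c65, chr19:39741102-39741351 (minus) for Cyp2c68, chr19:39886770-39887019 (minus) for Cyp2c69 and chr17:79715062-79715311 (minus) for Cyp1b1, a member that was higher in tumours.
Cyp2c55: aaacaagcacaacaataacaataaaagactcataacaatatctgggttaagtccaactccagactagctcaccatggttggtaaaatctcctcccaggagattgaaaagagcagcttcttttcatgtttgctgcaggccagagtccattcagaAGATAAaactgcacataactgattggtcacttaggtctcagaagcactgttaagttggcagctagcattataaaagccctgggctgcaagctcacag
Cyp2c65: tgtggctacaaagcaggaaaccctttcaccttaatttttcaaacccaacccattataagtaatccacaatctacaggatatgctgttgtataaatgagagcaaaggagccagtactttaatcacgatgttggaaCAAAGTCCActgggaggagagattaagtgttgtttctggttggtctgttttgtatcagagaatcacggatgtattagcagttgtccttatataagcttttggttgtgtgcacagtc
Cyp2c68: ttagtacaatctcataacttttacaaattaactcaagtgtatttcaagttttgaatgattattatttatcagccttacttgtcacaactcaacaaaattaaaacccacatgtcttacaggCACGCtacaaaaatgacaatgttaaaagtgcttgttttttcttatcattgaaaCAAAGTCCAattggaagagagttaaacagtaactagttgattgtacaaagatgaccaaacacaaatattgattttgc
Cyp2c69: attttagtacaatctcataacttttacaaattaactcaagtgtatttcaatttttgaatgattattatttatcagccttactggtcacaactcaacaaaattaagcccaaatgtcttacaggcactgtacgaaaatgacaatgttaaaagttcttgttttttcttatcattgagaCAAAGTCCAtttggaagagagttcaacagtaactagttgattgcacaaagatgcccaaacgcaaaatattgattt
Cyp1b1: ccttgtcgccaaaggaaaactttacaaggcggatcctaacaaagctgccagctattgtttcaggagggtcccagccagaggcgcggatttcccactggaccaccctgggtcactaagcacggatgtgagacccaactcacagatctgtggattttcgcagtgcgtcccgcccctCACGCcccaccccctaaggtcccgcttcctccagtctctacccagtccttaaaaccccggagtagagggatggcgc
CAAAGTCCA, letters of the type bound by HNF4, lies at -116 in Cyp2c65, -77 in Cyp2c68 and -75 in Cyp2c69, counted from the start to the first base of the match, and in no other of the 76 members (3.95%, against 0.381% of 27025 genes with a window). These 3 genes are paralogs, so their matches are not separate observations. The GATA factor site AGATAA was found in 14 members (18.4%, against 10.3% of genes), one of them Cyp2c55 at -97. The core letters bound by the aryl hydrocarbon receptor, GCGTG, were found in 17 members (22.4%, against 28.2%), among them Cyp1b1 at -76 and Cyp2c68 at -130, and the antioxidant response element, TGACNNNGC, in 3 (3.95%, against 10.1%). In Gstm5 the match to that element at -42 contains a match to the receptor core at -38, so these letters count for both. A match describes letters only.

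Among the other P450s, Cyp3a13, an intestinal relative of the drug-oxidizing CYP3A4, was at 85.2 ± 27.1 CPM in normal adult, 14.9 ± 14.5 at P14 and 18.3 ± 9.8 in tumours, and was lower in both comparisons (adjusted p = 0.0109 and 0.0289 in edgeR). The tumour call was lost without normal adult replicate 2 or 3 or tumour replicate 1 (adjusted p between 0.0563 and 0.0698). Cyp3a25 had 79 counts in normal adult and 0 at P14, at least 30.8-fold. The 2 Cyp2j genes, which epoxidize arachidonic acid, were not called by edgeR over all libraries with group alone in the model. DESeq2 and voom called Cyp2j9 lower in tumours than at P14, as did edgeR without tumour replicate 2. With the epithelial covariate edgeR also called Cyp2j9 in tumours against normal adult. Cyp2j6 was at 53.2, 63.5, 68.9 and 49.3 CPM in normal adult, 65.1, 59.1, 42 and 47.8 CPM at P14, and 44.1, 49.8, 44.3 and 68.6 CPM in tumours, which overlap throughout. Its log2 fold change was -0.14 ± 0.19 at P14 and -0.19 ± 0.19 in tumours. Cyp4b1, which oxidizes fatty acids and some plant toxins, was at 11.6, 23.5, 27.9 and 24.2 CPM in normal adult, 4.29, 3.84, 5.36 and 4.88 CPM at P14, and 40.1, 44.1, 19.5 and 62.3 CPM in tumours. All P14 libraries lay below all others. It was lower at P14 than in normal adult (log2 fold change -2.24 ± 0.33, adjusted p = 0.000791 in edgeR) and higher in tumours than at P14 (3.17 ± 0.33, adjusted p = 5.42e-05), while tumours and normal adult overlapped (0.93 ± 0.32, adjusted p = 0.0628). That difference was called by DESeq2 (adjusted p = 0.0344) and by edgeR without tumour replicate 3 (1.17, adjusted p = 0.0117). Cyp4v3 was lower at P14 as well, at 12 ± 2.91 CPM against 24.8 ± 3.17.

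The P450s that were higher in tumours than in normal adult were Cyp2f2, Cyp1b1, Cyp4f39 and Cyp2b10. Cyp2f2, known for naphthalene oxidation in airway club cells, was at 1.44, 3.58, 4.07 and 3.03 CPM in normal adult, 0.22, 0.495, 0.553 and 1.01 CPM at P14, and 39.8, 16.5, 57.3 and 57.8 CPM in tumours. The 3 groups did not overlap, and tumours were 14.1-fold above normal adult (log2 fold change 3.82 ± 0.44, adjusted p = 0.000325 in edgeR) and 74.7-fold above P14 (6.22 ± 0.48, adjusted p = 1.6e-05). Its lower level at P14 (-2.4 ± 0.49, adjusted p = 0.00368 in edgeR) had an adjusted p of 0.0601 in limma voom. Cyp1b1, an aryl hydrocarbon receptor target that activates polycyclic aromatic hydrocarbons, was at 1.41, 1.44, 1.33 and 0.886 CPM in normal adult, 1.35, 1.27, 3.01 and 1.81 CPM at P14, and 11.9, 6.27, 3.55 and 5.29 CPM in tumours. It was 2.41 ± 0.39 higher on the log2 scale in tumours than in normal adult (adjusted p = 0.0018). Cyp4f39, a fatty acid omega-hydroxylase of the skin barrier, and Cyp2b10, the classical target of the receptor CAR, were at 5.24 ± 4.14 and 4.63 ± 3.21 CPM in tumours and under 1.1 CPM in every other library. Cyp4f39 and Cyp2b10 were lowest among tumours in replicate 2, at 0.752 and 1.47 CPM. In the libraries with Xist alone, edgeR called neither against normal adult in tumours. Cyp4f39 was called by edgeR (2.93 ± 0.72, adjusted p = 0.0176, and 2.31 without tumour replicate 4) and not by voom (adjusted p = 0.0852). Cyp4f18, a leukotriene hydroxylase of leukocytes, was called higher in tumours than at P14, with tumour replicate 2 at 6.69 CPM and 0.286 CPM or less in the other tumour libraries, and its log2 fold change moved from 3.79 to -0.02 without it. Leaving out any P14 library also ended that call (adjusted p between 0.0638 and 0.0689 in edgeR).

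**Figure D4:**
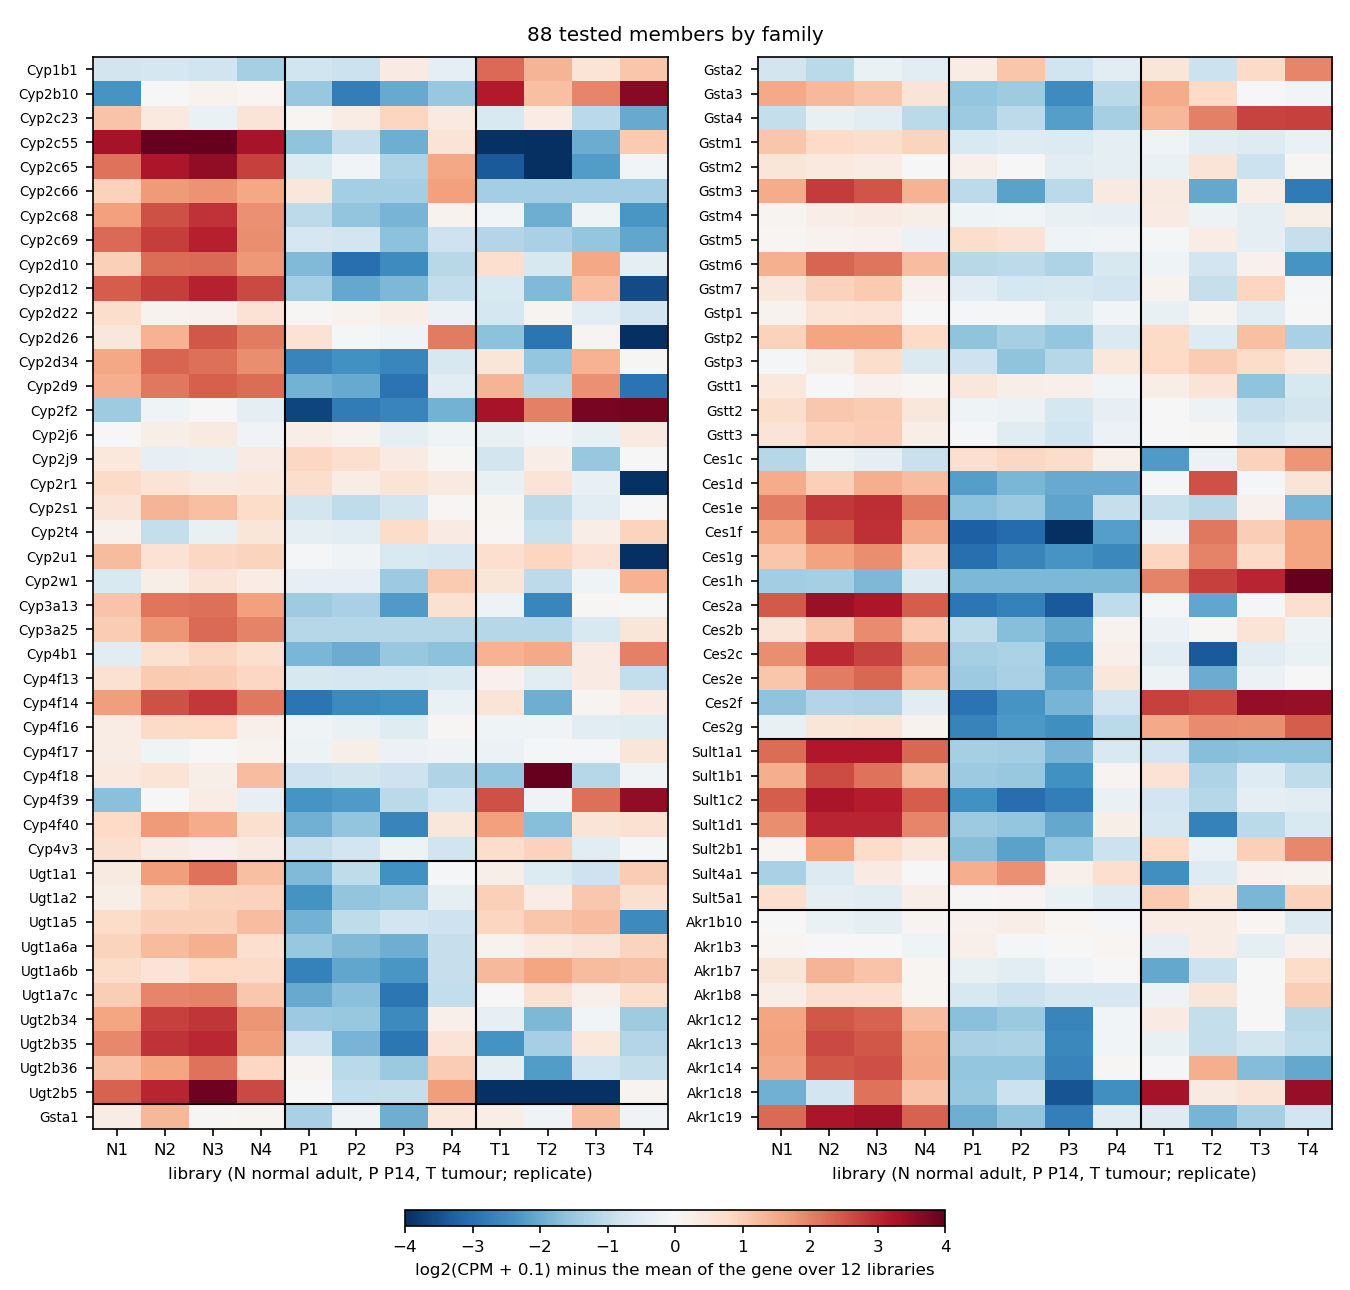
Heat map of the 88 tested members (rows, by family, with Gsta1 at the foot of the left panel) in the 12 libraries (columns); colour is log2(CPM + 0.1) minus the gene's mean over the libraries, clipped at -4 and 4. Most rows are red in normal adult columns and blue in P14 columns, often darkest in replicates 2 and 3; rows such as Cyp2f2, Ces1h and Ces2f are red in all 4 tumour columns.

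Carboxylesterases, which split esters, amides and, for some Ces1 enzymes, stored triacylglycerol, divided in tumours. 9 of 12 were lower at P14, and in tumours 4 were lower and 3 higher than in normal adult (median -0.49), while 7 were higher in tumours than at P14. Ces1d, a triacylglycerol hydrolase of adipose tissue and liver (chromosome 8, 93166068 to 93197838), was the highest Ces gene per length. It was at 229.4, 158.6, 223.1 and 194.3 CPM in normal adult, 17.9, 22.9, 20.1 and 20.4 CPM at P14, and 77.8, 485.5, 79.8 and 117.6 CPM in tumours. Neither the normal adult nor the P14 values followed the epithelial sums, and the P14 libraries lay close together. Ces1d was 9.92-fold lower at P14 (log2 fold change -3.31 ± 0.48, adjusted p = 0.00103 in edgeR). Tumours against normal adult gave -0.08 ± 0.48, and without tumour replicate 2 the value was -1.12 with an adjusted p of 0.00193 in edgeR. That library had the highest leukocyte, fibroblast and adventitial fibroblast marker sums among tumours, and their part was not tested. DESeq2 gave Ces1d no adjusted p. The group means of Ces1f and Ces1g, from the same cluster, had a similar course, Ces1f at 59.7 ± 28.7, 1.43 ± 0.889 and 32.1 ± 18.2 CPM and Ces1g at 23.9 ± 7.67, 1.36 ± 0.266 and 23.5 ± 9.74 CPM in normal adult, P14 and tumours. Both were lower at P14 (log2 fold changes -5.37 ± 0.53 and -4.13 ± 0.32) and higher in tumours than at P14 (4.48 ± 0.53 and 4.11 ± 0.32). Unlike Ces1d, both were higher in normal adult replicates 2 and 3 than in replicates 1 and 4, as the epithelial sum was. Ces1f was also highest in P14 replicate 4. Its P14 call was lost with the epithelial covariate, as were those of all called members but Ces1d and Ces1g. Ces1e, which lies between Ces1d and Ces1f, took another course, at 11 ± 3.71, 0.594 ± 0.241 and 1.06 ± 0.706 CPM in normal adult, P14 and tumours. It was lower than in normal adult both at P14 (-4.19 ± 0.43) and in tumours (-3.36 ± 0.43, adjusted p = 0.000499 in edgeR). Ces1c was not called by edgeR over all libraries. Ces1h, from the same cluster, had 6 counts over the normal adult libraries, 0 at P14 and 260 in tumours, at least 155.5-fold above P14, and was at 1.26, 2.22, 2.78 and 7.72 CPM in the tumour libraries.

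The Ces2 genes, the main intestinal carboxylesterases, divided within one cluster on chromosome 8. Ces2c was at 100.8, 222.1, 180.6 and 100.3 CPM in normal adult, 11, 11.5, 5.01 and 32.1 CPM at P14, and 20.6, 2.61, 20.3 and 23.1 CPM in tumours. Every normal adult library was above all others, and P14 replicate 4 and tumour replicate 2 stood at the high and the low end of their groups, as they did for the epithelial sum. Ces2c, Ces2e and Ces2a were lower both at P14 (log2 fold changes -3.34 ± 0.61, -2.56 ± 0.53 and -5.18 ± 0.56) and in tumours (-3.19 ± 0.61, -2.24 ± 0.53 and -3.08 ± 0.55), and without P14 replicate 4 the P14 values were -4.04, -3.39 and -5.99. Of their sequence, 22.1% and 11.4% of the 75-base windows in Ces2c and Ces2a recur elsewhere. Ces2g and Ces2f went the other way in tumours. Ces2g was at 5.9, 10.3, 10.7 and 8.01 CPM in normal adult, 1.07, 1.39, 1.24 and 3.41 CPM at P14, and 21, 27.1, 26.7 and 39.2 CPM in tumours, with no overlap (1.71 ± 0.34 for tumours against normal adult, adjusted p = 0.0053 in edgeR). Ces2f was at 8.65 ± 2.86 CPM in tumours, 0.374 ± 0.167 in normal adult and 0.192 ± 0.198 at P14.

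Among aldo-keto reductases, most calls against normal adult fell in the Akr1c subfamily. The Akr1c genes, which include hydroxysteroid dehydrogenases, were lower at P14 in 4 of 5 cases and in tumours in 3 of 5, and the Akr1b genes in 1 of 4 and 0 of 4 by edgeR (1 of 4 at an unadjusted p under 0.05, and 0 by DESeq2 and voom). The family medians were -2.98 at P14 and -1.22 in tumours. Akr1c18 went another way in tumours, at 2.67 ± 2.83 CPM in normal adult, 0.332 ± 0.298 at P14 and 8.76 ± 7.94 in tumours. Against normal adult edgeR did not call it at P14 (-2.98, adjusted p = 0.0508) or in tumours (1.71, adjusted p = 0.241). It was higher in tumours than at P14 (4.69 ± 1.04, adjusted p = 0.00638 in edgeR), a call that voom did not make. Akr1c19 was at 90.1, 177.5, 190.8 and 95.5 CPM in normal adult, 4.73, 6.1, 2.7 and 13.2 CPM at P14, and 12.9, 5.01, 7.27 and 10.9 CPM in tumours. The normal adult libraries lay clear of the rest, with a log2 fold change of -4.37 ± 0.44 at P14 (adjusted p = 0.000189 in edgeR) and -3.94 ± 0.44 in tumours (adjusted p = 0.000293). Akr1c13 was lower in both comparisons too (-3.23 ± 0.42 and -2.89 ± 0.42). Akr1c14, a reductase of steroid hormones, was lower at P14 (-3.2 ± 0.71, adjusted p = 0.00822, and -3.95 without P14 replicate 4), while its tumour libraries ran from 7.58 to 86.5 CPM, below the lowest normal adult library at 90 CPM. For tumours against normal adult edgeR did not call Akr1c14 (-2.03 ± 0.71, adjusted p = 0.0747), whereas DESeq2 (adjusted p = 0.0424), voom (0.0201) and edgeR without tumour replicate 2 (-3.09, adjusted p = 0.00914) did. Akr1b8, which reduces aliphatic and retinoid aldehydes, was at 61.9, 80.7, 80.6 and 55.1 CPM in normal adult, 33, 28.6, 31.7 and 32.8 CPM at P14, and 45, 72.2, 51.3 and 101.6 CPM in tumours. It was lower at P14 than in normal adult (-1.14 ± 0.23, adjusted p = 0.00323) and higher in tumours than at P14 (1.1 ± 0.23, adjusted p = 0.00306). Akr1b3, the aldose reductase, stayed within 41.4 to 49.4 CPM in normal adult and 45.1 to 52.9 CPM at P14, and ran from 35.6 to 57.2 CPM in tumours.

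Among the conjugating enzymes, glutathione S-transferases had the family medians nearest 0 in the 3 comparisons. 8 of 17 were lower at P14, and 5 were lower and 1 higher in tumours against normal adult, with medians of -1.08 and -0.46, and 0.29 in tumours against P14. Gstm2 was at 108.7, 101.1, 94.1 and 78.3 CPM in normal adult, 87.9, 77.9, 56 and 59.3 CPM at P14, and 63.4, 109.2, 42.3 and 80.4 CPM in tumours. These ranges overlap, and no comparison called it (-0.44 ± 0.25 at P14, -0.37 ± 0.25 in tumours). Its neighbour Gstm1, the mu-class enzyme whose human counterpart is often deleted, was at 83.3, 65.2, 63.3 and 71 CPM in normal adult, 25.4, 26.9, 26.3 and 29.4 CPM at P14, and 34.6, 28, 27 and 31.9 CPM in tumours. It was lower in both comparisons (-1.39 ± 0.13, adjusted p = 8.04e-05 in edgeR, and -1.22 ± 0.13, adjusted p = 0.000125), with the smallest SE among the 88 members at P14. Normal adult replicates 2 and 3 were its lowest, against the order of the epithelial sum, whereas P14 replicate 4 was its highest, with that order. With the epithelial sum as a covariate its P14 call was lost, as were those of all called members but Ces1d and Ces1g. In tumours Gstm1 remained called lower in that fit. Gsta4, which conjugates the lipid peroxidation product hydroxynonenal (chromosome 9, 78182774 to 78209349), went the other way. It was at 19.2, 30.4, 27.8 and 17.7 CPM in normal adult, 13.8, 18.1, 8.02 and 14.9 CPM at P14, and 94.9, 153.5, 243.2 and 250.5 CPM in tumours. The lowest tumour library lay above the highest of the others, and tumours were 7.81-fold above normal adult (2.96 ± 0.32, adjusted p = 0.000183) and 13.5-fold above P14 (3.76 ± 0.32, adjusted p = 2.37e-05). At 50.1% and 29.2%, Gstp2 and Gstp1 share many windows with near copies, and Gsta1 shares 84.7%.

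Glucuronosyltransferases were lower at P14 in 8 of 10 cases and in tumours in 5 of 10, with medians of -2.76 and -1.3, and 5 were higher in tumours than at P14. The Ugt1a genes are alternative first exons spliced to common exons, so their counts depend on how shared reads were assigned, which is not given in the sources used here. Ugt1a7c, with 52.5% shared windows, was at 60.1, 117.5, 119.2 and 64.2 CPM in normal adult, 7.39, 9.32, 3.94 and 15.2 CPM at P14, and 30.1, 46.3, 34.4 and 49.5 CPM in tumours. The 3 groups were separate. It was lower at P14 (-3.33 ± 0.36, adjusted p = 0.000226 in edgeR) and higher in tumours than at P14 (2.15 ± 0.36, adjusted p = 0.000946). Its call against normal adult in tumours (-1.17 ± 0.36, adjusted p = 0.0391) was lost without normal adult replicate 2 or 3, P14 replicate 1 or 2 or any tumour library (adjusted p between 0.05 and 0.11). The 4 Ugt2b genes, which handle steroids and bile acids, were all lower in tumours than in normal adult. Ugt2b34 was at 166.9, 372.6, 405.3 and 191.1 CPM in normal adult, 20.4, 19.4, 9.4 and 63.9 CPM at P14, and 44.4, 16, 51.3 and 20.5 CPM in tumours. It was 10-fold lower at P14 and 8.59-fold lower in tumours (-3.33 ± 0.54, adjusted p = 0.00174, and -3.1 ± 0.54, adjusted p = 0.00354), and the P14 value was -4.11 without P14 replicate 4. Of the other Ugt2b calls in tumours, that of Ugt2b36 was lost without normal adult replicate 3 (adjusted p = 0.0717 in edgeR), and Ugt2b5 had 0 counts in tumour replicates 1 to 3 and 22 in replicate 4, against 244 to 637 counts in normal adult libraries.

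Sulfotransferases had the lowest of the 6 family medians in tumours against normal adult, -2.34, with 4 of 7 called lower, and 5 of 7 were lower at P14 with a median of -3. Sult1d1, which sulfates catecholamines, was at 135, 305.7, 305.8 and 144.9 CPM in normal adult, 13.5, 12.5, 8.95 and 43.3 CPM at P14, and 23.1, 5.55, 17.6 and 24.2 CPM in tumours. Sult1a1, the phenol sulfotransferase, was at 87.9, 173.2, 173.5 and 92.5 CPM, 7.31, 7.09, 5.05 and 12.2 CPM, and 10.9, 5.69, 5.97 and 5.93 CPM in the same order. For both genes all normal adult libraries lay above all others, and Sult1a1 was 16.6-fold lower at P14 (-4.05 ± 0.32, adjusted p = 6.48e-05 in edgeR) and 18.4-fold lower in tumours (-4.21 ± 0.32, adjusted p = 2.85e-05). Sult1b1, active on thyroid hormones, was lower in both comparisons as well (-3 ± 0.53 and -2.34 ± 0.53). Without P14 replicate 4 the P14 values of Sult1d1 and Sult1b1 moved from -3.51 to -4.25 and from -3 to -3.72. Sult4a1, a brain form, had the highest fitted log2 fold change of the members at P14, 1.57 ± 0.63, at 1.7 ± 0.863 against 0.571 ± 0.298 CPM, and it was not called by edgeR (adjusted p = 0.0787) but was by DESeq2 and by edgeR without tumour replicate 1.

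**Figure D5:**
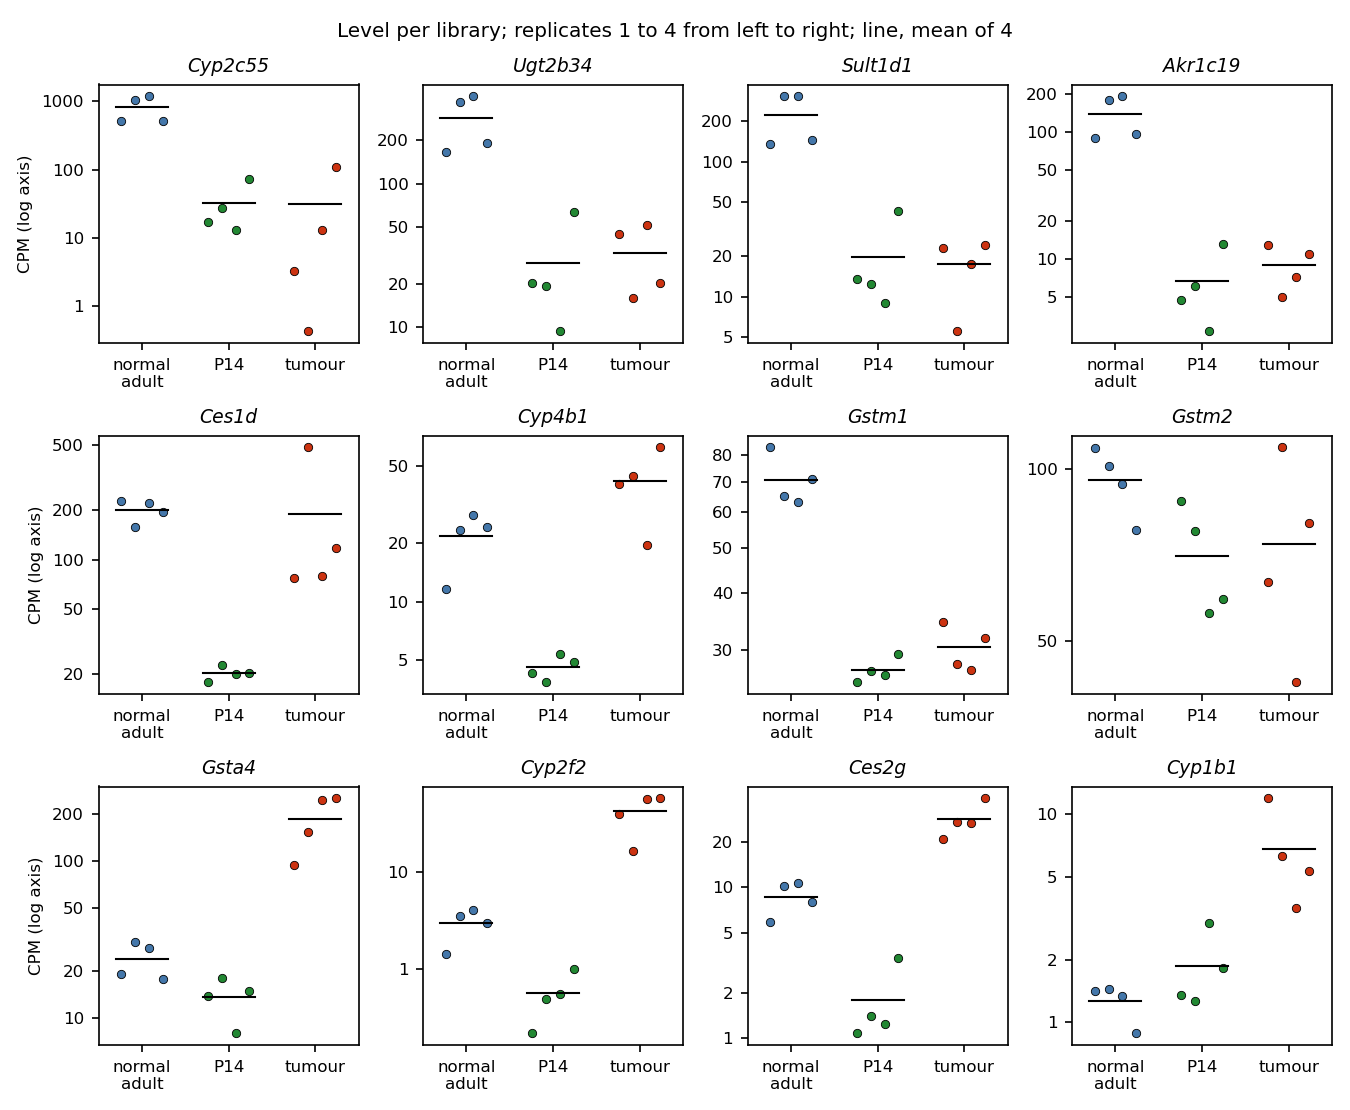
CPM (log axis) of 12 members in each library; points are replicates 1 to 4 from left to right and lines are means of 4. In the top row normal adult libraries lie above all others, Ces1d and Cyp4b1 are lower in all P14 libraries than in any other, Gstm2 overlaps between groups, and Gsta4, Cyp2f2, Ces2g and Cyp1b1 are highest in all tumour libraries.

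Genes that control, supply or follow these enzymes were read from 5 lists. Of 20 regulators, 6 were lower and 3 higher at P14, 3 lower and 2 higher in tumours against normal adult, and 3 lower and 4 higher in tumours against P14, with medians of -0.09, -0.09 and 0.15. Called regulators were 45%, 25% and 35% of the list, against 30.9%, 18.9% and 37% of all tested genes. Nr1i2 (the receptor PXR) was at 54 ± 18.2 CPM in normal adult, 6.82 ± 5.12 at P14 and 12.6 ± 4.79 in tumours, and was lower in both comparisons (-2.98 ± 0.45 and -2.1 ± 0.45). Hnf4a, a regulator of gut and liver epithelium, was at 139, 310, 299.4 and 174 CPM in normal adult, 19.1, 17.2, 13.7 and 76.8 CPM at P14, and 107.2, 22, 101.9 and 38.2 CPM in tumours. Like the epithelial sum, it was high in normal adult replicates 2 and 3 and P14 replicate 4 and low in tumour replicate 2. It was lower at P14 (-2.86 ± 0.59, adjusted p = 0.00534 in edgeR) and not called in tumours (-1.78 ± 0.59, adjusted p = 0.0614). Nr1h4, the bile acid receptor FXR, was lower in both. Cebpa, a regulator of metabolic genes, was higher in tumours than in either other group (0.86 ± 0.18 and 1.33 ± 0.18). The receptors' partner Rxra, the xenobiotic sensor Ahr and the stress factor Nfe2l2, named here after their values were seen, were not called in any comparison.

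Of 12 target genes of NRF2, the factor encoded by Nfe2l2, 6 were lower at P14, 2 were lower and 2 higher in tumours against normal adult, and 6 were higher and 1 lower in tumours against P14, with medians of -0.6, 0.13 and 0.76, and 50%, 33.3% and 58.3% were called. Of all tested genes 30.9%, 18.9% and 37% were called. Slc7a11, the cystine importer for glutathione synthesis, was at 2.63, 5.02, 4.51 and 3.1 CPM in normal adult, 1.68, 2.94, 2.87 and 3.35 CPM at P14, and 23.2, 24, 73.1 and 10.5 CPM in tumours (3.1 ± 0.47 against normal adult, adjusted p = 0.00147 in edgeR). Nqo1, a quinone reductase of the same list, was lower in tumours (-0.93 ± 0.2, adjusted p = 0.00725), so the list did not move as one. Gclc, Gsr and Pgd, which make glutathione and NADPH, were lower at P14 (log2 fold changes -1.32 ± 0.19, -1.2 ± 0.26 and -1.05 ± 0.29).

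Of 13 partners and suppliers of cofactors, 8 were lower at P14 and 6 in tumours against normal adult, with medians of -0.62 and -0.42. That is 61.5% and 46.2% of the list, against 16% and 8.29% of all tested genes called lower. Ugdh, which makes the UDP-glucuronic acid used by the Ugt enzymes, was at 522.8, 527.4, 554.8 and 484 CPM in normal adult, 239.8, 240, 267.8 and 252 CPM at P14, and 129.5, 168.2, 111.7 and 124.4 CPM in tumours. The groups were separate with little spread (-1.06 ± 0.14 at P14, adjusted p = 0.000355, and -1.97 ± 0.14 in tumours, adjusted p = 1.03e-05 in edgeR), and tumours were lower than P14 by 0.91 ± 0.14 on the log2 scale. Ugp2, one step earlier, was lower in tumours than at P14 as well. Slc26a2 and Papss2, which supply sulfate and its activated form to the Sult enzymes, were lower in both comparisons (-2.56 ± 0.3 and -2.18 ± 0.35 at P14, -2.27 ± 0.3 and -1.73 ± 0.35 in tumours).

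Of 38 listed drug-metabolizing enzymes outside the 6 families, 22 were lower at P14, and 15 were lower and 4 higher in tumours against normal adult, with medians of -1.02 and -0.67, and 57.9% and 50% of the list called, against 30.9% and 18.9% of all tested genes. Adh1, an alcohol dehydrogenase, was lower in both (-3.43 ± 0.37 and -1.83 ± 0.37), and Inmt, an amine methyltransferase, and Mgst2, a microsomal glutathione transferase, were lower at P14 (-5.61 ± 0.78 and -3.12 ± 0.37). Adh7 and Aldh3a1, an alcohol and an aldehyde dehydrogenase of stratified epithelia, and the omega-class transferases Gsto1 and Gsto2 made up the 4 higher in tumours. Aldh3a1 was at 6.47, 4.94, 5.08 and 5.45 CPM in normal adult, 1.24, 2.45, 1.8 and 1.51 CPM at P14, and 77.8, 27.2, 18.2 and 74.1 CPM in tumours. Of 18 transporters, 9 were lower and 1 higher at P14, and 7 lower and 5 higher in tumours, with medians of -0.57 and -0.64, and 55.6% and 66.7% of the list called, against the same 30.9% and 18.9% of all tested genes. The mouse has a pair of genes for the efflux pump P-glycoprotein, and they moved apart in tumours. Abcb1a was at 375.8, 706.9, 683.8 and 382 CPM in normal adult, 20.4, 27.7, 25 and 86.4 CPM at P14, and 57.6, 39.3, 159.6 and 127.4 CPM in tumours, and Abcb1b was at 7.43, 8.08, 7 and 6.68 CPM, 2.86, 2.6, 3.7 and 4.21 CPM, and 25.3, 34.3, 22.6 and 39.4 CPM. Abcb1a was lower in tumours than in normal adult (-2.48 ± 0.51, adjusted p = 0.00727 in edgeR) and Abcb1b higher (2.06 ± 0.21, adjusted p = 0.00012), and both were lower at P14. The peptide and drug importer Slc15a1 was lower in both comparisons and the efflux pump Abcc2 was higher in tumours (3.32 ± 0.82), where 1 library, tumour replicate 3, was at 65 CPM and another, replicate 2, at 1.54 CPM.

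When the squamous marker sum, which parts tumours from the other groups, was added to the model, an alternative chosen after seeing the data, 0 members were called higher and 1 lower (Sult1a1) in tumours against normal adult, and 23 genes of the whole table were called, against 3545 without it. The median log2 fold change of the members was then -1.23, against -0.87. The higher members Gsta4, Cyp2f2, Ces2f, Ces2g, Cyp1b1, Cyp2b10, Cyp4f39 and Ces1h and the squamous markers cannot be told apart in these libraries. In the 8 libraries with Xist, 2 members were lower at P14 and 12 lower and 4 higher in tumours against normal adult, with 23 and 644 calls over all genes. Of the members called higher in tumours, Ces1h, Ces2g, Cyp2b10 and Cyp4f39 lost the call there. The median log2 fold change of the members there was -2.15 at P14 and -0.84 in tumours, close to the -2.31 and -0.87 over all libraries. Within both normal adult and P14, 4 of 90 members were higher in the libraries with Xist (Cyp2b10, Cyp2d26, Cyp2d9 and Cyp2w1). None was higher in the libraries without it. Of all tested genes, 0.87% and 1.03% had these orders. The part of sex in the tumour values was not tested. Libraries from separate mice are the unit of all tests, and counting error is only part of the spread between them.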

How the data were processed

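Stromal RNA was measured by RNA-seq in 12 libraries, 4 per group, and the titles number a separate mouse for each. The authors deposited 1 table of whole-number read counts per gene. STAR 2.4.2a, edgeR 3.28.0 and GRCm38 are named in the submitters' processing notes; the counting tool, annotation and strand setting were not given in the sources used here, so reads of overlapping or antisense genes cannot be told apart. The lowest total of a listed gene was 12 counts. Symbols were taken by Ensembl ID from GENCODE M21 (19012 IDs matched, 37 did not). Groups came from the labels, with the 3 groups in 1 model: filterByExpr (minimum count 10, minimum total 15) removed 322 genes, and edgeR 4.0.16 tested 18727 with TMM factors, its quasi-likelihood test and Benjamini-Hochberg adjustment (R 4.3.3; common biological coefficient of variation 0.333). Limma 3.58.1 and DESeq2 1.42.0 gave alternatives, with other scalings, filters, covariates and left-out libraries. Fits were tested on simulated data. Same-numbered libraries of different groups did not deviate together throughout (3 of 6 correlations over 0.1), so no pairing was used.

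The members and lists were chosen with earlier results of these data known. Named members were, per comparison and direction, up to 10 called ones with the highest mean CPM, plus the 2 of each family with the highest level per length; list genes were up to 3 per comparison with the largest called change, both at 1 CPM or more. Other members or list genes named were counted in groups of 5 or fewer or chosen after their values were seen. Some genes of the regulator list are not reported here by name. Per-length values use exonic length. Floors (3 counts) cover counting error only.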

Additional observations from a re-analysis of the deposited data

Results flagged for a closer look

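In 12 of 105 sets of 4 libraries (a named member or a family sum in 1 group), 1 library stood apart from the other 3, its gap to the nearest exceeding Dixon's 95% critical share of the range. That share is set so that about 1 in 20 sets of independent, normally distributed values exceed it. The values here are untransformed CPM of related genes, many named for their calls, so the number flagged cannot be set against that rate. In P14 it was replicate 4, the library with the highest epithelial marker sum, for Ces2a (6.335 CPM, others 1.175 to 1.919), Ces2e (42.17, others 7.223 to 12.48), Ces2g (3.405, others 1.072 to 1.393), Cyp2d34 (11.64, others 2.83 to 3.344) and Sult1d1 (43.31, others 8.951 to 13.52). Cyp4v3 was set apart by P14 replicate 3 (16.31 CPM, others 9.974 to 10.99). In tumours, replicate 2 stood high for Ces1d (485.5 CPM, others 77.8 to 117.6) and low for Ces2c (2.613 CPM, others 20.33 to 23.09), replicate 4 stood high for Cyp2c55 (107.9 CPM, others 0.4296 to 13.1) and replicate 1 for Sult1a1 (10.93 CPM, others 5.692 to 5.969). In normal adult, replicate 1 was low for Cyp2b10 (0.03204 CPM, others 0.59 to 0.649), and replicate 4 was low for the summed Gst level (329.8 CPM, others 414.9 to 424.2). The part of any single library feature in these values was not tested.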

How the results depend on the processing

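Counts of calls moved beyond 1.5 times under the following settings, and no member called in both fits changed sign. For P14 against normal adult, where edgeR called 0 members higher, 53 lower and 5789 of all genes, DESeq2 called 1 higher and a fit of only these groups 2. The epithelial sum as a covariate gave 2 lower and 38 of all genes (median member log2 fold change -0.53, against -2.31), and the libraries with Xist 2 and 23 (median -2.15). For tumours against normal adult (8 higher, 35 lower, 3545 of all genes), the epithelial sum gave 17 lower (median -0.56, against -0.87), the libraries with Xist 4 higher, 12 lower and 644 of all genes (median -0.84), and the squamous sum, added after seeing the data, 0 higher, 1 lower and 23 of all genes (median -1.23). For tumours against P14 (28 higher, 0 lower, 6930 of all genes), DESeq2 called 4 lower and voom 3. The epithelial sum gave 18 higher, 11 lower and 2506 of all genes, the libraries with Xist 17, 1 and 1999, the squamous sum 0 higher and 28 of all genes, and leaving out P14 replicate 4 with tumour replicate 4, also added later, 2 lower. Requiring an absolute log2 fold change of at least 1 left 3559, 2281 and 4221 genes in the 3 comparisons.

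With the title number as a replicate block, calls over all genes were 2953 at P14, 818 in tumours against normal adult and 3740 against P14, with 17 members lower in tumours against normal adult and 4 against P14. The numbers were not taken as pairs, and whether libraries of the same number shared handling was not tested.

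Leaving out 1 library at a time gave 0 to 2 members higher at P14 (2 without tumour replicate 1), 51 to 58 lower, and 4149 to 6704 calls over all genes. In tumours it gave 8 to 9 higher, 26 to 39 lower and 2303 to 4168 calls over all genes against normal adult (26 and 2303 without normal adult replicate 3), and 24 to 35 higher and 0 to 4 lower against P14, the 4 without tumour replicate 2. Signs turned for 8 values of named genes. With the epithelial covariate Ces2c and Ces2e were at 0.28 and 0.47 at P14 (adjusted p = 0.924 and 0.745 in edgeR), and in tumours against P14 Ces2c, Ces2e and Ugt2b34 were at -1.89, -1.28 and -1.4 (adjusted p = 0.017, 0.00853 and 0.00425). With the squamous covariate Cyp2b10 and Cyp4f39 were at -1.52 and -0.31 against normal adult, and Cyp2b10 at -0.26 against P14 (adjusted p = 0.844, 0.978 and 0.982). The cause was not tested. Of the other named-gene values, 1708 kept direction and side of the threshold, 103 lost the call and 23 gained it. Changes under about 1 CPM, such as those of Cyp2c66 and Ces1h outside tumours, rest on few counts, most of all in tumour replicate 4.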
